A study of Mus musculus with 10 samples.

Results

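Mouse induced pluripotent stem cells (iPSC) grown in 2i medium with serum were compared with iPSC grown together with mouse embryonic fibroblasts (MEFs). The comparison rests on 4 single-channel Affymetrix arrays, 2 for each culture, of 10 arrays in 5 groups of 2. The members were taken from the array titles, as all arrays named for iPSC in 2i and all named for iPSC with MEFs. The labels give no strain, cell line, passage, age or clone for either iPSC group, and do not say whether the 2 arrays of a group came from separate cultures, or whether the feeder MEFs were taken out ahead of RNA extraction. Apart from 2i with serum or co-culture, medium was described as standard for mouse embryonic stem cells. The other 6 arrays were used to judge a technical split of the series and to estimate the spread. These came from secondary MEFs, cells made to express the reprogramming (Yamanaka) factors, after 32 days of that expression: a day 32 sample and the fractions sorted as positive or negative for Sox2. All p-values measure the spread between these samples, which may be technical, and an exact permutation test of 2 arrays against 2 cannot give a two-sided p below 0.33.

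Medium with 2i holds a pair of kinase inhibitors. One blocks MEK and so the ERK pathway, which carries FGF signals and drives pluripotent cells towards differentiation. The other blocks GSK3, the kinase that marks beta-catenin for destruction, and so mimics a Wnt signal. ERK activity switches on short-lived transcription factors such as Fos and the Egr genes and its own brakes, the Sprouty and DUSP proteins. MEF feeders and serum supply growth factors, and stem cells kept on them are known to be a mixture of naive and more primed states.

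In 2i, part of the genes that report ERK activity were lower. Fos lay 30.8-fold below its level in co-culture and Dusp1 5.02-fold. Of 23 measured genes of ERK output and feedback, 12 were called lower and 0 higher, against 14.9% and 21.5% of all genes. Of the 12, 6 were also lower in the day 32 sample than on all 4 sorted arrays and were set aside. Those samples differ in their cells as well as in a technical split. The other 6 were not set aside, against 4.43% of all genes. Dppa3, a naive and germline gene, lay 20.6-fold lower, Bmp4 15.2-fold lower, and the Wnt target Sp5 3.26 log2 units lower. Dusp1, Dppa3 and Bmp4 were also lower in the day 32 sample than in the Sox2-positive fraction, though not than on all 4 sorted arrays. Nanog, Zfp42, Esrrb and Tcl1 were 2.14- to 3.28-fold higher, and each of those 4 calls was lost when any single iPSC array was left out. Most other differences between the cultures ran in the same direction as the difference between the day 32 sample and the sorted fractions. That difference spans a technical split of the arrays, described next, as well as different cells.

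Control probe sets for 18S ribosomal RNA separated the 10 arrays into classes. The 3' probe set lay between 5.25 and 6.55 log2 units on 4 arrays, those of iPSC in 2i and the day 32 sample, and between 11.35 and 13.22 on the 6 arrays of iPSC with MEFs and of both sorted fractions. The 3' probe set of Actb exceeded its 5' probe set by 2.7 to 3.88 on the first 4 arrays and by 0.05 to 1.12 on the others. The culture of the iPSC and the array class therefore cannot be told apart on the 4 iPSC arrays alone. All values below are log2 values after quantile normalization over the 10 arrays. A gene is called where its adjusted p in limma (Benjamini-Hochberg over 8599 genes) is under 0.05. A gene was set aside where both day 32 arrays lay above all 4 sorted arrays and 2i lay above co-culture, or both below and 2i below. The day 32 and sorted samples also differ in their cells, so that a true culture effect can be set aside too.

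Of 8599 genes, 3127 (36.4%) were called between the cultures, 1849 higher (21.5%) and 1278 lower (14.9%) in 2i. The day 32 arrays did not overlap the sorted arrays for 4699 genes (54.6%), and limma called 4515 (52.5%) between them. Of all genes 48% were set aside, against 72.9% of the called ones, with 74.7% of the genes called higher and 70.2% of those called lower. A further 2.14% of the called genes parted in the opposite direction. This left 848 genes called and not set aside (9.86%), 467 higher (5.43%) and 381 lower (4.43%). Across the 8599 genes the culture difference and the day 32 difference had a Pearson correlation of 0.72 and a Spearman correlation of 0.68, and 76.6% had the same sign. These points come from the same arrays and are not independent replicates. The median gene lay 0.23 higher in 2i. On the deposited values, without further normalization, it lay 1 higher, and 5253 genes were called, 86.7% of them higher in 2i against 59.1% here. With each array centred on its median instead, 1289 genes were called and not set aside, of which 30.6% were higher against 55.1% here.

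**Figure D1:**
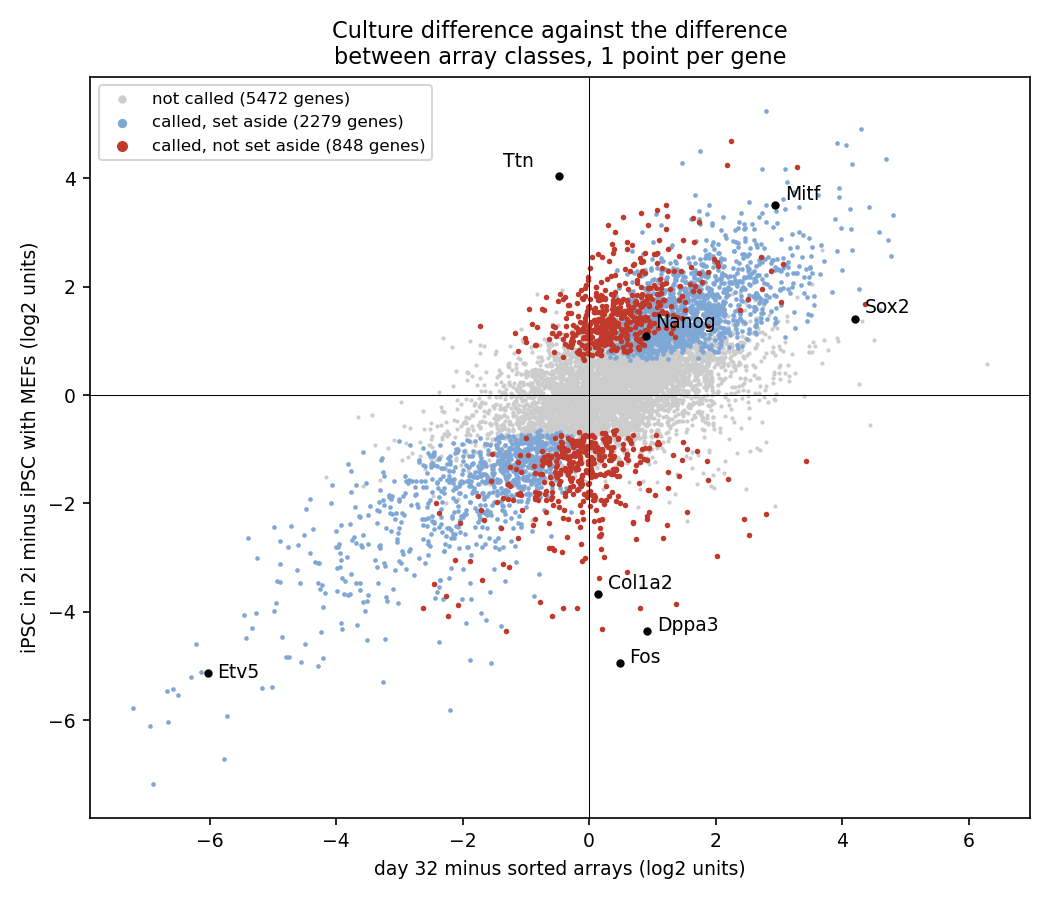
Each point is 1 of 8599 genes, with the day 32 minus sorted difference on the x axis and the difference between iPSC in 2i and iPSC with MEFs on the y axis, both in log2 units. Most called genes lie along the rising diagonal and were set aside (2279), while Fos, Dppa3 and Col1a2 lie far below 0 on the y axis near 0 to 1 on the x axis, among the 848 called genes not set aside.

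Among transcription factors that ERK switches on, Fos stood at 5.72 and 4.81 on the 2i arrays and at 10.79 and 9.63 with MEFs. The groups were far apart, with a difference of -4.94 (SE 0.53, adjusted p = 0.000394), and the day 32 and sorted arrays overlapped. Egr2, an early growth response factor, was under the floor of 4 in 2i (2.35 and 2.58) and at 6.99 and 5.81 with MEFs, at least 5.27-fold lower in 2i (adjusted p = 0.00871). A second Egr2 probe set fell as well (-2.45). Phlda1, an early growth factor response gene, was at 6.36 and 5.63 against 7.62 and 7.48, a difference of -1.56 (SE 0.47, adjusted p = 0.0319).

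Several brakes of the pathway were called lower as well. Dusp1, a phosphatase that removes the activating phosphates of MAP kinases, was at 8.85 and 8.65 in 2i and at 11.18 and 10.97 with MEFs (-2.33, SE 0.23, adjusted p = 0.000307). Its day 32 arrays (9.24 and 9.41) lay below the Sox2-positive ones (9.7 and 9.65) and above the Sox2-negative ones (8.96 and 8.7). Dusp6, the phosphatase that acts on ERK itself, was at 7.14 and 8.46 against 9.72 and 9.74 (-1.93, SE 0.44, adjusted p = 0.00983), with the 2i arrays unequal but both below co-culture. Spry1, a Sprouty inhibitor of receptor signalling, was at 4.67 and 4.61 against 5.75 and 5.87 (-1.17, SE 0.28, adjusted p = 0.0122). Il17rd, also called Sef, an inhibitor of FGF signalling outside the list, was under the floor in 2i (3.50 and 3.83) and at 6.64 and 6.33 with MEFs, at least 5.6-fold lower (adjusted p = 0.00262).

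The other 6 called genes of the list were set aside, since they were also lower in the day 32 sample than in the sorted fractions. Etv5, an ETS factor downstream of FGF and ERK, had the largest difference of the list, with 4.80 and 5.13 in 2i and 10.05 and 10.12 with MEFs. It also fell by 6.03 between the sorted and the day 32 arrays. Maff, Spry4, Spred2, Egr1 and Etv4 differed between the cultures by -3.43, -3.41, -1.48, -3.31 and -1.17. The 11 uncalled genes ranged from -1.25 (Phlda2) to 0.30 (Spry2), and Spry2, an abundant Sprouty gene, stood at 10.49 and 10.79 against 10.26 and 10.43. The median of the 23 genes was -1.17, which is 1.41 below the median of all genes. It lay 1.24 below that median on the deposited values and after median centring. With an array left out, the list had 5 genes called and not set aside without 2i array b, 2 without 2i array a, 2 without co-culture array a and 3 without co-culture array b, which need not be among the 6. An omission leaves 1 array in a group, whose spread is taken from the other groups. Fos, Dusp1 and Il17rd stayed called in all 4 omissions. Spry1 and Phlda1 were lost in all 4 (adjusted p up to 0.074 and 0.173), Dusp6 in all but that of 2i array b (up to 0.0629), and Egr2 without 2i array a or co-culture array a (up to 0.07). On the deposited values Spry1 (-0.18, adjusted p = 0.603) and Phlda1 (-0.62, adjusted p = 0.268) were not called.

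**Figure D2:**
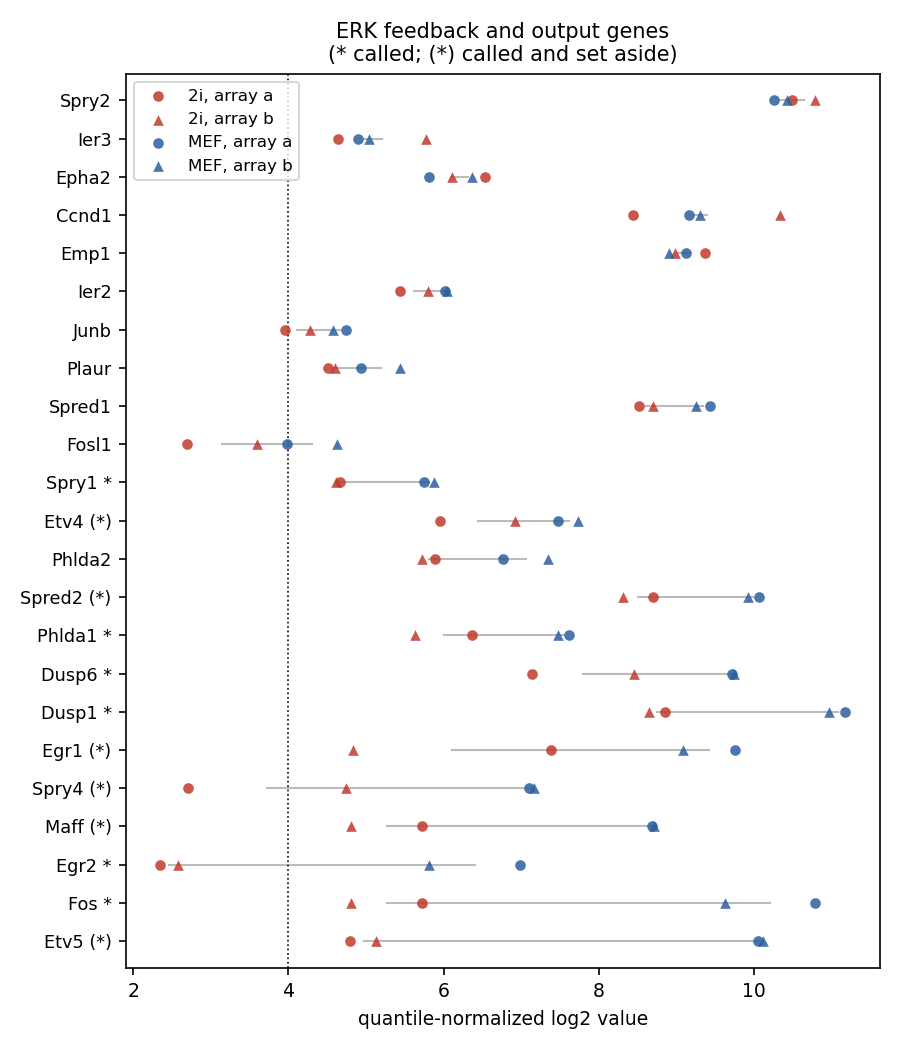
The x axis gives the quantile-normalized log2 value of each of 23 ERK feedback and output genes (y axis) on the 2 arrays in 2i (red) and the 2 with MEFs (blue), with circles for array a, triangles for array b, a grey line between the group means and a dotted line at the floor of 4. Fos, Egr2, Maff and Etv5 show a wide gap between the colours, while Spry2, Emp1 and Epha2 do not.

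Members of the ERK and Wnt lists that were called and not set aside numbered 11, and 5' windows of 8 of them were read from RefSeq on GRCm38.p6, from 250 bases before to 50 after a start site. The windows, 12 in all because Egr2 has several starts, were searched on both strands for the TCF/LEF motif through which beta-catenin acts, and for 4 exact forms of the CArG box bound by serum response factor. The TCF/LEF letters were CTTTGAA as the first form searched, CTTTGTT as the next form and CTTTGAT as the last. A match to the forms searched was found in 1 window, that of Sp5, with TCF/LEF matches starting 222 and 104 bases before the start site. No window was read for the other members, Phlda1 of the ERK list and Ccnd2 and Cdx1 of the Wnt list. Other forms of the CArG box were not searched, and some of the Egr2 windows hold such a form. The search therefore cannot tell whether a window without a match lacks a CArG box. Of all 32851 windows of 300 bases, 13.9% hold the TCF/LEF motif and 0.21% one of the CArG forms. The Sp5 window (plus strand, chr2:70474673-70474972) and that of Fos (plus strand, chr12:85473640-85473939), the gene with the largest fall among those measured on all 4 arrays and not set aside, are shown 5' to 3' with the matches in capitals. The Fos window holds none of the motifs searched, and sequence more than 250 bases before its start site was not read.
Sp5: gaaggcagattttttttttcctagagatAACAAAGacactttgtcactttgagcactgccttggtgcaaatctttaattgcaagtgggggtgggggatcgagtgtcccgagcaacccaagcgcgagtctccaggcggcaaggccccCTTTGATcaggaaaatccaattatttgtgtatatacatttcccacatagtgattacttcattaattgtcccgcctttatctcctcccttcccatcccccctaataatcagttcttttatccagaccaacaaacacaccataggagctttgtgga
Fos: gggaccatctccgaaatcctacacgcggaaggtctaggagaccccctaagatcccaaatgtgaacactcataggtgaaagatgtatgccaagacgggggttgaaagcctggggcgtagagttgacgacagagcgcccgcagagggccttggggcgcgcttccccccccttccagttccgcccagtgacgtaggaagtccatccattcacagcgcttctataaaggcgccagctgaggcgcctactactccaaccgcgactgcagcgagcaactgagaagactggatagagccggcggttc

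Naive pluripotency genes moved in both directions. Of 19 measured, 6 were called higher and 3 lower, and 4 and 2 of these were not set aside. Of all genes 21.5% were called higher and 14.9% lower, so the share of lower calls in the list is near that of all genes. After median centring 2 were called higher and 5 lower. Nanog, a core factor of the naive state, stood at 12.13 and 12.16 in 2i and at 10.93 and 11.18 with MEFs (1.09, SE 0.34, adjusted p = 0.0364). Zfp42, the marker known as Rex1, was at 12.30 and 12.47 against 10.65 and 10.76 (1.68, SE 0.47, adjusted p = 0.0222). Tcl1, a cofactor of AKT, was at 8.72 and 8.79 against 7.42 and 6.74 (1.68, adjusted p = 0.0366). The arrays of the cultures did not overlap for any of these genes.

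Esrrb, a nuclear receptor repressed downstream of GSK3 and Tcf7l1, was at 11.67 and 11.45 in 2i and at 10.03 and 9.66 with MEFs (1.71, SE 0.54, adjusted p = 0.0375). Its other probe set, much dimmer, ran the opposite way, at 2.37 and 2.43 against 4.61 and 4.54. The difference of Nanog turned to -0.15 after median centring, and those of Zfp42 and Esrrb came to 0.44 and 0.75 without a call (adjusted p = 0.457 and 0.234). On the deposited values Nanog was not called (0.86, adjusted p = 0.0618), and Zfp42 and Esrrb were set aside. All 4 higher calls were lost in each of the 4 omissions (adjusted p up to 0.169 for Nanog, 0.105 for Zfp42, 0.198 for Tcl1 and 0.171 for Esrrb). Tfcp2l1 (2.07) and Lifr (1.75), a transcription factor and the LIF receptor, were called higher and set aside, and Stat3, which carries the LIF signal, was called lower and set aside (-2.44).

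Dppa3, also called Stella, fell most in the list. It stood at 5.38 and 6.13 in 2i and at 10.32 and 9.93 with MEFs (-4.36, SE 0.58, adjusted p = 0.00105) and stayed called in all 4 omissions. Its day 32 arrays (5.38 and 6.73) lay below both Sox2-positive arrays (8.6 and 7.4), in the direction of the culture difference. Dppa3 was not set aside because the Sox2-negative arrays were lower still (2.78 and 1.73). Gbx2, a homeobox gene downstream of LIF, was at 5.19 and 6.70 against 8.80 and 9.07 (-2.99, SE 0.78, adjusted p = 0.0173), and the call was lost in every omission but that of 2i array b (adjusted p up to 0.123). The other 10 genes were not called, among them Klf2 (-0.77), Klf5 (-1.40), Nr5a2 (0.91), Tbx3 (0.50) and Dppa5a (0.03). The median of the 19 genes was 0.07, which is 0.16 below that of all genes. Of the Yamanaka genes, Pou5f1 was at 10.19 and 10.26 against 9.42 and 9.63 (0.70, adjusted p = 0.127) and Klf4 at 10.26 and 9.19 against 10.78 and 10.45 (-0.89, adjusted p = 0.267). Sox2, at 12.48 and 12.42 against 10.94 and 11.15, was called higher and set aside. Myc, at 4.31 and 6.74 against 9.18 and 9.21, was called lower (-3.67, adjusted p = 0.0153) and set aside, since it fell by 3.88 between the sorted and the day 32 arrays.

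Genes of the primed and formative epiblast, the later states that ERK activity favours, had 3 of 13 called lower and 0 higher, and none of the 3 was set aside. Of all genes 14.9% were called lower and 21.5% higher, and 4.43% were lower and not set aside. Pim2, a survival kinase, was at 4.28 and 4.88 against 7.17 and 7.19 (-2.60, SE 0.32, adjusted p = 0.000786). Cldn6, a tight junction claudin of the epiblast, was at 6.39 and 6.69 against 8.42 and 8.37 (-1.86, SE 0.42, adjusted p = 0.00985). Pou3f1, the POU factor Oct6 of the formative epiblast, was at 5.83 and 6.74 against 8.33 and 8.64 (-2.19, SE 0.72, adjusted p = 0.0424).

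Pim2 stayed called in all omissions, Pou3f1 in none (adjusted p up to 0.212) and Cldn6 only without 2i array b (up to 0.0663). On the deposited values Pou3f1 (-1.36, adjusted p = 0.111) and Cldn6 (-1.02, adjusted p = 0.0591) were not called. Otx2, the factor that leads exit from the naive state, was at 4.48 and 4.92 against 5.58 and 6.49 (-1.33, adjusted p = 0.116). Lefty1, a Nodal inhibitor, differed between the 2i arrays themselves, at 5.03 and 7.56 against 7.99 and 8.54 (-1.97, adjusted p = 0.073). The median of the list was -0.63, or 0.86 below that of all genes.

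**Figure D3:**
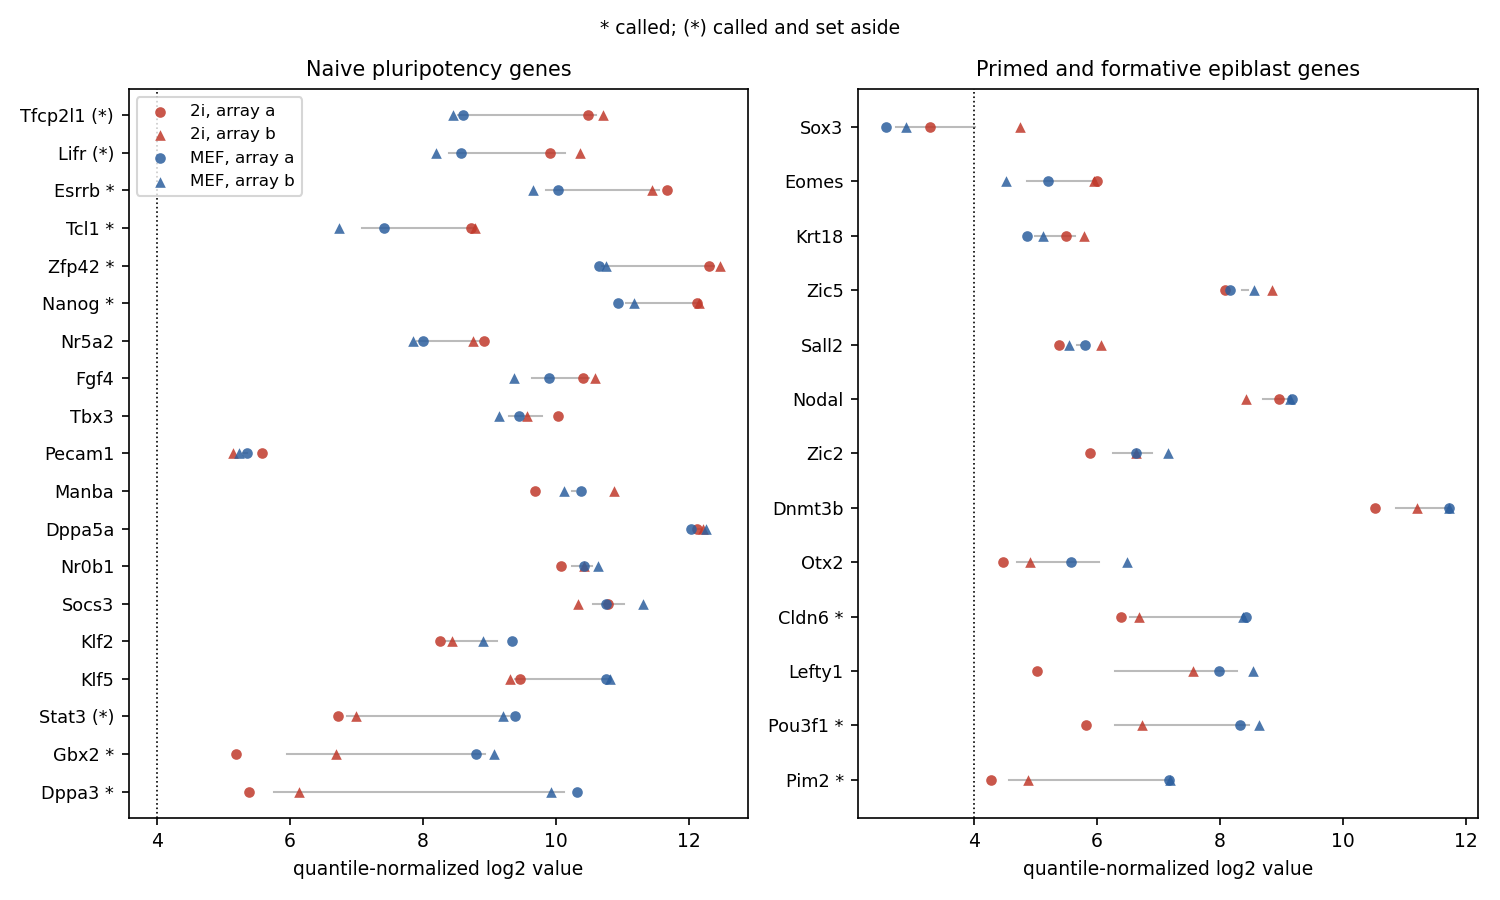
The x axes give the quantile-normalized log2 values of 19 naive pluripotency genes (left) and 13 primed and formative epiblast genes (right) on the 2 arrays in 2i (red) and the 2 with MEFs (blue), with circles for array a, triangles for array b, a grey line between group means and a dotted line at 4. In the left panel genes differ in both directions, from Tfcp2l1 (2.07) to Dppa3 (-4.36), while in the right panel the 3 called genes, Cldn6, Pou3f1 and Pim2, all lie lower in 2i.

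Targets of Wnt and beta-catenin, the arm that GSK3 inhibition acts on, had 2 of 14 called higher and 4 lower, against 21.5% and 14.9% of all genes. Sp5, a zinc finger factor induced by beta-catenin, was at 3.66 and 4.29 in 2i and at 7.30 and 7.18 with MEFs (-3.26, SE 0.31, adjusted p = 0.000248). It stayed called in all omissions. On the day 32 and sorted arrays it lay under the floor throughout, with day 32 the higher, opposite to the culture difference. Bmp4, a ligand that supports self-renewal in serum, was at 4.41 and 6.32 against 9.37 and 9.22 (-3.93, SE 0.62, adjusted p = 0.00222) and also stayed called. Sfrp2, a secreted Wnt antagonist, was at 4.18 and 5.52 against 8.07 and 7.97 (-3.17, SE 0.72, adjusted p = 0.0102).

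Ccnd2, a D-type cyclin, was at 2.23 and 4.69 against 7.41 and 7.35 (-3.93, adjusted p = 0.0127) on its brightest probe set, while its 6 other probe sets differed by -1.79 to 0.42 and none of them was called. Cdx1, a caudal homeobox gene, was the 1 gene called higher and not set aside, at 5.54 and 4.63 against 3.79 and 3.59, at least 2.12-fold (adjusted p = 0.0137). Notum, a Wnt-inactivating enzyme, was called higher (1.81) and set aside. Axin2, the common reporter of the pathway, was at 5.68 and 6.34 against 7.37 and 6.62 (-0.99, SE 0.59, adjusted p = 0.219). Sfrp2, Ccnd2 and Cdx1 lost their calls without 2i array a or either co-culture array (adjusted p up to 0.0787, 0.0914 and 0.099). In the BMP list, Smad1, a mediator of BMP signals, was also lower (-1.84, SE 0.38, adjusted p = 0.00699), and its call was lost without co-culture array a (0.0592).

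Genes that set or remove DNA methylation had 2 of 11 called higher and 3 lower, against 21.5% and 14.9% of all genes. Zfp57, which keeps imprints methylated, was at 10.43 and 10.54 in 2i and at 8.78 and 8.58 with MEFs (1.80, SE 0.35, adjusted p = 0.00525) and stayed called in all omissions. Tet1, an enzyme that oxidises methylcytosine, was at 7.84 and 7.68 against 9.65 and 9.66 (-1.90, SE 0.48, adjusted p = 0.0149), with a second probe set at -1.82. Mbd4, a repair glycosylase, was at 3.96 and 3.80 against 5.51 and 5.55, at least 2.88-fold lower (adjusted p = 0.00878).

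Dppa3, described above, is known to shield methylation and was the third. The call of Tet1 was lost in all 4 omissions (adjusted p up to 0.0747) and that of Mbd4 in all but that of 2i array a (up to 0.0545), and Mbd4 was set aside after median centring and not called on the deposited values (-0.76, adjusted p = 0.0961). The methyltransferases were not called. Dnmt3b was at 10.52 and 11.21 against 11.73 and 11.73 (-0.87, adjusted p = 0.287), Dnmt3a differed by -1.20 (adjusted p = 0.176), Dnmt3l by 0.76 (adjusted p = 0.438) and Dnmt1 by -0.19 (adjusted p = 0.567). The median of the 11 genes was -0.87, or 1.10 below that of all genes.

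The epithelial list held 4 genes lower in 2i and not set aside, of 23 measured, and 1 higher and set aside. Of all genes 4.43% were lower and not set aside, and 21.5% were called higher. Grhl2, a factor that keeps epithelial and formative genes active, was at 4.11 and 5.8 against 7.80 and 8.03 (-2.97, SE 0.55, adjusted p = 0.00448). Crb3, a polarity protein, was at 6.64 and 6.28 against 8.97 and 9.28 (-2.66, SE 0.50, adjusted p = 0.00462), and Epcam, an adhesion molecule of epithelial and pluripotent cells, at 8.65 and 8.78 against 10.42 and 9.90 (-1.45, SE 0.36, adjusted p = 0.0145). Cldn6 was the fourth. The mean of the probe sets of Crb3 differed by -1.51. Grhl2 and Crb3 stayed called in all omissions, and Epcam was lost in all but that of co-culture array b (adjusted p up to 0.104). The median of the list was 0.05, or 0.19 below that of all genes.

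Fibroblast genes bear on whether MEF RNA was in the co-culture samples. Col1a2, a chain of type I collagen, was under the floor in 2i (2.18 and 2.15) and at 5.96 and 5.72 with MEFs, at least 3.58-fold higher there (adjusted p = 6.7e-05), and it stayed called in all omissions. After median centring it was set aside. Col1a1, the other chain, was at 4.50 and 6.10 against 7.66 and 7.61 (-2.33, SE 0.83, adjusted p = 0.0563), and its second probe set was at -1.83. In bulk samples, fewer cells of a type and less RNA per cell cannot be told apart.

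Of 14 fibroblast markers, 6 (Postn, Lum, Dcn, Thy1, Fap and Cdh11) did not pass the filter on low values. Postn, Lum and Fap lay between 1.26 and 2.78 on the 4 iPSC arrays, in the range of background, while Thy1 was at 4.64 and 4.40 with MEFs against 3.13 and 3.47 in 2i. The linear signal summed over the 8 markers that passed was 380 and 345 with MEFs, 170 and 194 in 2i, 575 and 543 in the day 32 sample, 79 to 106 in the Sox2-positive and 391 to 830 in the Sox2-negative fraction. The same sum over the wider list of 30 fibroblast and mesenchymal genes was 9370 and 9150 with MEFs and 9530 and 12200 in 2i. Array a in 2i thus lay near co-culture and array b above it. The mean log2 value of that list was 4.93 and 4.77 with MEFs and 4.18 and 5.11 in 2i. The sum over 8 markers was higher with MEFs, as were Fos, Dppa3, Bmp4 and Sp5, and its part in those results was not tested. All 8 pluripotency markers were measured, with a mean of 11.17 and 11.31 in 2i and of 10.48 and 10.61 with MEFs. Of blood and endothelial markers, 5 of 6 and 3 of 4 did not pass the filter, and of those of primitive endoderm 3 of 6. The linear signal of those that passed was higher in 2i. It was 80.2 and 110 against 46.8 and 61.6 for the 1 blood marker, and 89.8 and 68 against 28.7 and 18 for the 1 endothelial marker. For the 3 of primitive endoderm it was 37.7 and 51.6 against 17.2 and 17.9.

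In the wider list of fibroblast and mesenchymal genes, 1 of 30 was called lower and not set aside (Col1a2), against 4.43% of all genes. Sparc and Zeb1 were called higher and set aside, 2 of 30 against 21.5% of all genes called higher. The 2i arrays differed from each other here. Array b exceeded array a by more than 1 in 13 of the 30 genes and the reverse held for 1, against 0 and 1 in co-culture, and the median gap was 0.83. Lox, which crosslinks collagen, was at 1.08 and 5.36 on the 2i arrays, and Acta2, smooth muscle actin, at 2.44 and 7.22 (8.53 and 8.21 with MEFs). Without array b the list had 4 genes called lower and not set aside, and its median relative to all genes was -0.75, whereas without array a it was 0.22, against -0.22 with both. The direction of this list thus depends on which 2i array is used.

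**Figure D4:**
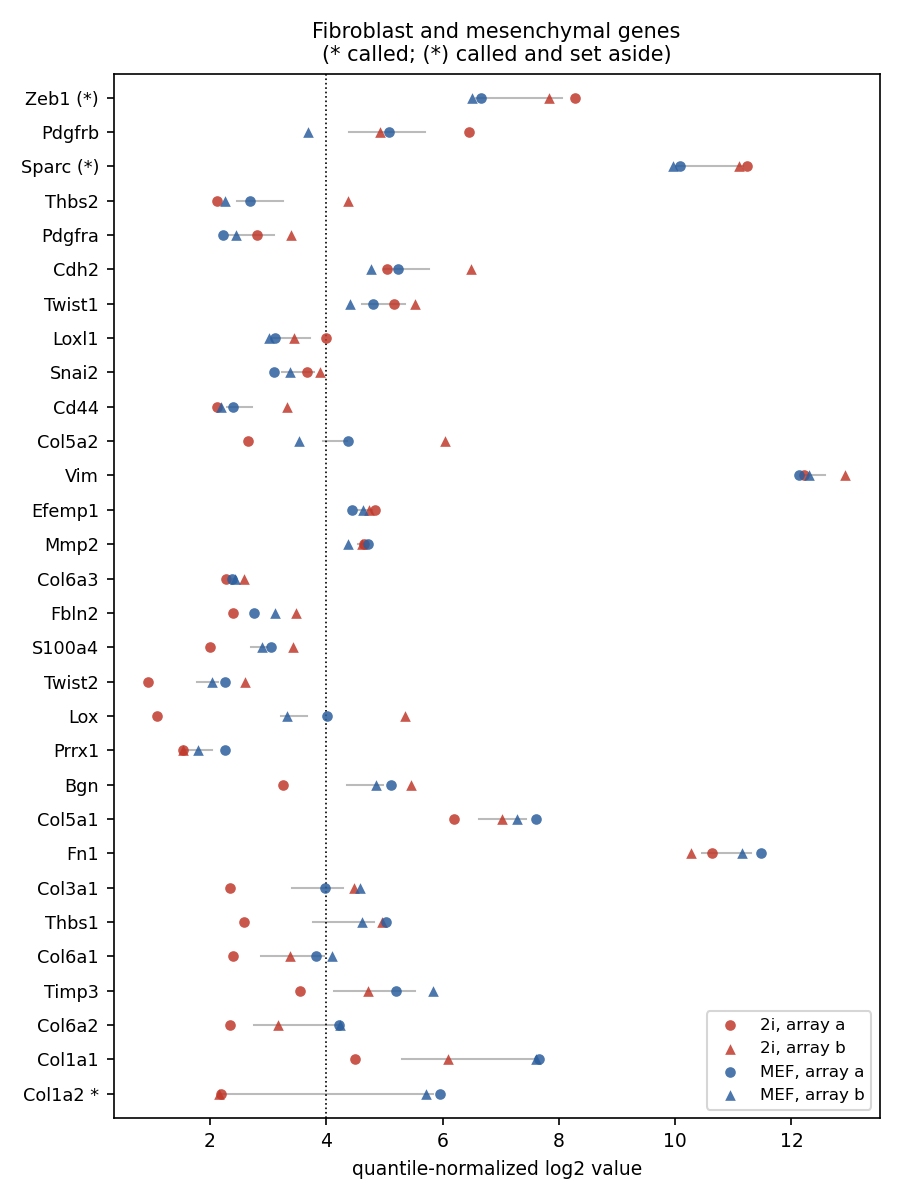
The x axis gives the quantile-normalized log2 value of each of 30 fibroblast and mesenchymal genes (y axis) on the 2 arrays in 2i (red) and the 2 with MEFs (blue), with circles for array a, triangles for array b, a grey line between group means and a dotted line at 4. Col1a2 shows tight groups wide apart, whereas for Lox and Col5a2 the red triangle (5.36 and 6.04) lies above both co-culture arrays and the red circle (1.08 and 2.66) below them.

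The largest rises in 2i among genes measured on all 4 arrays and not set aside were led by Mitf, the melanocyte and lysosome transcription factor, at 9.24 and 9.41 against 6.21 and 5.44 (11.3-fold, adjusted p = 0.0072). Slc11a1, a metal transporter of phagosomes, was at 8.17 and 7.52 against 4.12 and 4.73 (10.7-fold). Rabgap1, a Rab GTPase activator, was at 9.87 and 9.75 against 6.89 and 6.61 (8.33-fold), though its other probe set was at -0.33. Ildr1 (7.33-fold), Dpp4, a cell surface peptidase (7.3-fold), Baz2b, a bromodomain protein (6.93-fold), Srsf5, a splicing factor (6.83-fold), Kmt5a, the histone H4 lysine methyltransferase (6.18-fold), Saa3, an acute phase protein (6.17-fold), and Stmn2, a tubulin-binding protein (6.05-fold), followed.

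Kmt5a had the smallest SE of these, at 9.78 and 10.10 against 7.10 and 7.53 (2.63, SE 0.29, adjusted p = 0.000491). That SE draws on all 5 groups, and Srsf5 and Ildr1 were tighter within the iPSC groups (SD 0.02 in 2i and 0.08 with MEFs for each). For Kmt5a and Rabgap1 both day 32 arrays lay above both Sox2-positive arrays, in the direction of the culture difference. Mitf also rose by 2.94 from the sorted to the day 32 arrays, against 3.5 between the cultures. It was not set aside because day 32 array a (6.58) lay below Sox2-positive array b (7.75). Rabgap1, Baz2b, Srsf5, Kmt5a and Stmn2 stayed called in all omissions. Mitf was lost without co-culture array b (0.0575), Ildr1 without co-culture array a (0.0542), Slc11a1 without 2i array a or co-culture array a (up to 0.0702), Dpp4 in all but that of co-culture array a (up to 0.0825) and Saa3 in all but that of 2i array b (up to 0.0695). After median centring Srsf5 and Kmt5a were set aside. On the deposited values 7 of the 10 were, namely Mitf, Rabgap1, Ildr1, Baz2b, Srsf5, Kmt5a and Stmn2.

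Genes that rose from under the floor were led by Ttn, the giant sarcomere protein, at 7.84 and 7.54 in 2i against 3.98 and 3.29, at least 12.9-fold (adjusted p = 0.0028), and its second probe set rose too (3.48). Snhg11, a small nucleolar RNA host gene (at least 8.89-fold), Bhmt, a methyltransferase of methionine synthesis (7.47), Myo1f, a class I myosin (7.06), A2m, a protease inhibitor (5.49), Apom, an apolipoprotein (4.75), Gstp3, a glutathione transferase (4.18), and Ppp1r14d, a phosphatase inhibitor (4.03), followed, each as a lower bound on the fold. Bhmt differed between the 2i arrays, at 8.22 and 5.58, and both its day 32 arrays lay above both Sox2-positive arrays. Bhmt was lost without 2i array a or co-culture array a (adjusted p up to 0.0559) and Gstp3 in all omissions but that of co-culture array a (up to 0.0767), while the other 6 stayed called.

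Below Fos and Dppa3, the largest falls among genes measured on all 4 arrays and not set aside were those of Rnf157, a ubiquitin ligase (16.9-fold), Zfp423, a zinc finger partner of SMADs (15.2-fold), Bmp4, Rex2 (14.7-fold), Tex19.1, a germline and placental protein (14.2-fold), Rapgef3, the cAMP-activated exchange factor Epac1 (11.2-fold), Speg, a muscle kinase (10.7-fold), and Sfrp2 (8.99-fold). Zfp423 was at 5.05 and 6.12 against 9.73 and 9.29 (-3.93, SE 0.73, adjusted p = 0.0044), and Tex19.1 at 7.09 and 7.48 against 11.34 and 10.88 (-3.82, SE 0.91, adjusted p = 0.0121). For Dppa3, Rnf157, Bmp4, Rex2, Tex19.1 and Rapgef3, both day 32 arrays also lay below both Sox2-positive arrays, in the direction of the culture difference. These genes were not set aside because the rule takes all 4 sorted arrays. Zfp423 and Speg stayed called in all omissions. Rex2 was lost in all 4 (adjusted p up to 0.181), Rnf157 and Rapgef3 in all but that of 2i array a (up to 0.129 and 0.0954) and Tex19.1 in all but that of 2i array b (up to 0.0751). The SE of Rex2 (1.32) draws on all 5 groups, and its Sox2-negative arrays were at 1.45 and 6.53. Within the iPSC groups its SD was 0.19 in 2i and 0.35 with MEFs. Rnf157 was unequal on the 2i arrays, at 7.5 and 4.9 against 10.28 and 10.28. Its difference ran from -2.78 to -5.38 with an iPSC array left out. Rnf157 has a second probe set at 0.32 and Rapgef3 1 of 2 others at 0.24, neither called. Speg has 3 dimmer probe sets at -0.75, -0.51 and -0.28, none of them called, and the mean of its probe sets differed by -1.24.

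Genes that fell to under the floor, besides Il17rd, Egr2 and Col1a2, were Pkdcc, a secreted kinase (at least 7.03-fold lower), Usp25, a deubiquitinase (4.78), Tmem30b, a flippase subunit (4.27), Tmlhe, an enzyme of carnitine synthesis (3.68), and Tnfaip2, a TNF-induced gene (3.53). Usp25 was at 3.85 and 3.43 against 6.13 and 6.38 (adjusted p = 0.00137), with both groups tight. Il17rd and Tmem30b also had both day 32 arrays below both Sox2-positive arrays. Usp25 and Tmem30b stayed called in all omissions. Pkdcc was lost in all 4 (adjusted p up to 0.0766), Tmlhe without 2i array a or co-culture array b (up to 0.0639) and Tnfaip2 without co-culture array b (0.0538). Tnfaip2 has a second, dim probe set at 0.65. Of the 848 genes, 286 have further probe sets above the filter, and for 144 of these at least 1 runs the other way, with a call of its own for 60.

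Another contrast takes the day 32 minus sorted difference, which spans the same array classes, from the culture difference. It grows where these have opposite signs. It called 140 genes (1.63%), 48 with the culture difference the more positive (0.558%) and 92 the more negative (1.07%). Of the genes called between cultures and not set aside, 17 were higher (0.198% of all genes) and 44 lower (0.512%) in 2i by this measure as well. Among those named here, the lower ones with day 32 and sorted arrays above the floor were Dusp1 (-2.40, adjusted p = 0.0237), Fos (-5.42, SE 0.70, adjusted p = 0.0237), Pim2 (-2.76, adjusted p = 0.0303) and Crb3 (-3.41, adjusted p = 0.0457). Dppa3 (-5.29, adjusted p = 0.0244), Grhl2 (-4.99, adjusted p = 0.0244) and Pou3f1 (-4.99, adjusted p = 0.044) were called too, with the Sox2-negative arrays under the floor. Grhl2 was at 3.85 and 3.58 on the Sox2-negative and at 8.02 and 7.36 on the Sox2-positive arrays. Pou3f1 was at 1.64 and 3.58 against 5.53 and 6.82, and Dppa3 at 2.78 and 1.73 against 8.6 and 7.4. The day 32 minus sorted differences of Grhl2, Pou3f1 and Dppa3, 2.02, 2.79 and 0.92, thus hold a difference between the sorted cells, and add to the value of the contrast. For Dppa3 both day 32 arrays lay below both Sox2-positive arrays, so that the sign of its 0.92 rests on the Sox2-negative arrays. Col1a2, Sp5, Ppp1r14d and Ttn were also called, but at most 1 of their 6 day 32 and sorted arrays reached the floor, so that the difference between array classes is not measured for them and no value is given. Sox2 was called as well (-2.81, adjusted p = 0.0364), since its rise of 1.41 in 2i was smaller than its day 32 minus sorted difference of 4.21. The fractions were sorted on Sox2, which was at 4.88 and 4.48 on the Sox2-negative and at 10.08 and 10.93 on the Sox2-positive arrays. That 4.21 therefore holds the sorting itself and does not measure the array class alone. Without 2i array b, 16 genes were called by this contrast, and with any other iPSC array left out limma called 0, with 1259 to 1416 genes at an unadjusted p under 0.05.

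Across the 28 gene lists, the ERK list (6 of 23) and the naive and neural lists (6 of 19 each) had the most calls not set aside by count, against 9.86% of all genes. By share, the Wnt list (1 higher and 4 lower of 14) and the DNA methylation list (1 and 3 of 11) came ahead of them. The calls of the ERK list all ran lower, while the naive list had 4 higher and 2 lower and the neural list 3 each way. The counts that follow are to be read against the 21.5% of all genes called higher and the 14.9% called lower. Oxidative phosphorylation had 10 of 33 genes higher and 5 lower, of which 4 and 0 were not set aside, and after median centring 2 higher and 17 lower, with 0 and 6 not set aside. Uqcrb (1.10) and Uqcrc1 (1.14), subunits of complex III, lost their calls in all 4 omissions. Cell cycle genes had 6 of 35 higher and 8 lower, with 1 and 2 not set aside, and after median centring 4 higher and 16 lower, with 0 and 6 not set aside. Ccne1, the cyclin of S phase entry, was at 9.27 and 10.16 in 2i and at 11.64 and 11.41 with MEFs (-1.81, SE 0.41, adjusted p = 0.00988), and was lost without 2i array a or co-culture array a (up to 0.077). The Polycomb list had 4 of 20 higher and 6 lower, with 2 and 1 not set aside, and after median centring 3 higher and 9 lower. Pcgf1, a subunit of a variant Polycomb complex, rose from under the floor, at 6.14 and 5.65 against 3.17 and 3.22 (at least 3.72-fold, adjusted p = 0.00187).

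**Figure D5:**
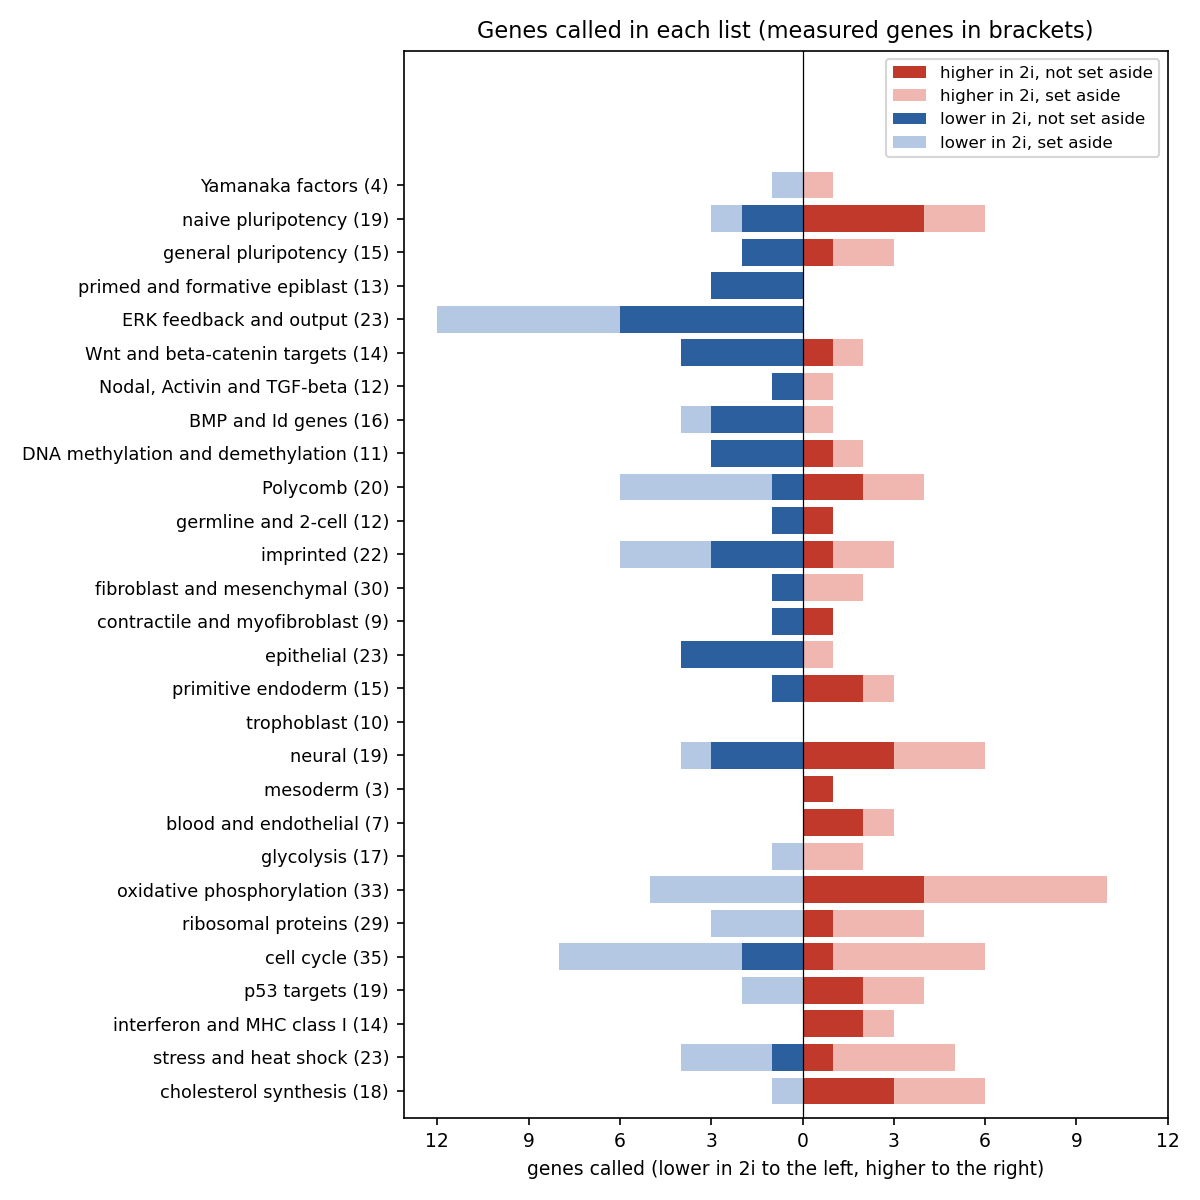
Bars count, for each of 28 gene lists (y axis, measured genes in brackets), the genes called higher in 2i (red, to the right) and lower (blue, to the left), with dark parts for genes not set aside and pale parts for genes set aside. The ERK list has the longest bar to the left, 12 genes with 6 of them dark, and oxidative phosphorylation the longest to the right, 10 genes with 4 dark.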

How the data were processed

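Expression was measured on 10 single-channel Affymetrix mouse arrays. Per the labels, RNA was extracted with Trizol and amplified with one of a pair of NuGEN Ovation kits, without saying which kit was used for which array. The deposited table holds log2 values that the authors made with GCRMA and the affy package, per the submitters' processing notes. The sources used here give no version and no build.

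Of 22690 probe sets, 64 controls served only to describe arrays, and 20380 carried 1 gene symbol. The 691 with several and 1555 with none were left out. Values of all 22626 other probe sets were quantile normalized over the 10 arrays. A probe set was kept where its deposited value exceeded 4 on at least 2 arrays, which left 14012, and the brightest stood for each of 8599 genes. The limma 3.58.1 fit in R 4.3.3 took all 10 arrays, with 1 mean for each of 5 groups (residual degrees of freedom 5, prior 3.7). The number of arrays limits the precision. On simulated data of the culture comparison, the share of altered genes recovered was 4.48% at a change of 1 on the log2 scale, 85.1% at 2 and 98.5% at 4. There were 5 false calls among 8599 genes. The simulation altered 67, 67 and 66 genes by those sizes, far fewer than the 3127 genes called in the data. An adjusted p under 0.05 thus needed a smaller unadjusted p there, and these shares do not carry over to the data. Folds whose lower group lay under 4 on both arrays are lower bounds, set against 4.

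The members, the 28 gene lists and the tests were chosen with earlier results of these data known. Named genes were called, with arrays of the cultures not overlapping, and not set aside: the 10 largest rises and falls with all arrays at 4 or above, 8 each with the lower group under 4, the Yamanaka genes, and list members. Symbols of predicted genes or cDNA clones were skipped. Alternatives covered normalization, filters, probe set choice, array weights, the rule for setting genes aside, omitted arrays and the replicate letter as a block. Promoter windows came from RefSeq. Figures were drawn with matplotlib in Python.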

Additional observations from a re-analysis of the deposited data

How the results depend on the processing

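The culture comparison called 3127 genes. It called 5253 on the deposited values and 5646 when every probe set counted by itself, and between 1573 and 1932 with an iPSC array left out. The 848 genes called and not set aside became 1289 after median centring (672 shared), 1574 with quantile normalization over the 4 iPSC arrays alone, 1601 in a fit of those arrays alone, 1585 with array weights, 1337 probe sets counted singly, and 1389 when a gene was set aside only for a difference over 1. With an iPSC array left out they numbered 274 to 451. On the deposited values they numbered 861, of which 198 were shared with the 848. When parting was judged on the deposited values they numbered 976, of which 7.89% were higher in 2i against 55.1%. When parting was judged against the Sox2-positive arrays alone they numbered 624, with 345 higher and 279 lower in 2i. The contrast beyond the day 32 difference called 140 genes, 1095 on the deposited values, 1088 after median centring, and 0 to 16 with an iPSC array left out. Its share of genes with the culture difference the more positive fell from 34.3% to 12.5% and 12.6% under those scalings. The day 32 arrays parted from the sorted ones for 4699 genes, and for 5533 and 5543 without a day 32 array. The share with day 32 higher was 65.8%, and 92.7% on the deposited values.

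After median centring the sign turned for Nanog (-0.15), Uqcrb (-0.31), Ndufa4 (-0.04) and Rif1 (-0.11), none of them called then. With the mean of a gene's probe sets it turned for Esrrb (-0.23) and Mdm2 (-0.71), because their probe sets disagree. The letters a and b name the arrays in each group, but the array differences of iPSC in 2i and with MEFs correlated at 0. Those of the day 32 sample correlated at 0.32 with the Sox2-positive and at 0.22 with the Sox2-negative arrays, and the other pairs of groups lay between -0.07 and 0.06. The arrays are thus taken to share only a letter. With the letter as a replicate block, 3138 genes were called, 889 of them not set aside, and 160 by the contrast beyond the day 32 difference. Genes changed by 1 log2 unit were rarely found in the simulation, which altered few genes and so had a stricter cutoff than the data. A gene not called may still have differed by 2-fold. The list counts and medians with single arrays left out were an alternative chosen after seeing the data. Of the 99 single genes followed through the alternatives, 15 lost their call on the deposited values, and more than that did with any single iPSC array left out.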

Other observations

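Some smaller groups showed differences that belong to no list described above. Of 18 measured genes of cholesterol synthesis, 6 were called higher and 1 lower in 2i, and 3 of the higher ones were not set aside, against 21.5% and 14.9% of all genes called higher and lower. After median centring 5 were called higher and 5 lower, with 2 and 4 not set aside. Sc5d, a late desaturase of the pathway, was at 6.63 and 6.4 in 2i and at 4.48 and 4.68 with MEFs (1.94, SE 0.39, adjusted p = 0.00591) and stayed called with each iPSC array left out in turn. Fdps, which makes farnesyl diphosphate, was at 5.94 and 6.12 against 4.09 and 4.84 (1.57, adjusted p = 0.0213), and Msmo1, a methyl sterol oxidase, at 10.61 and 10.10 against 8.77 and 9.21 (1.37, adjusted p = 0.0189). After median centring Msmo1 was not called (0.81, adjusted p = 0.101). Both lost their calls in 3 of the 4 omissions (adjusted p up to 0.146 and 0.123). The median of the list lay 0.07 below that of all genes.

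Imprinted genes had 3 of 22 called higher and 6 lower, of which 1 and 3 were not set aside. Of all genes 21.5% were called higher and 14.9% lower, with 5.43% and 4.43% not set aside. Ndn, a growth suppressor expressed from the paternal allele, was at 6.12 and 6.45 against 8.23 and 8.0 (-1.83, SE 0.32, adjusted p = 0.00337) and stayed called in all 4 omissions. Peg3, a zinc finger gene, was at 7.96 and 8.20 against 9.77 and 9.28 (-1.44, adjusted p = 0.00591), and its call was lost without co-culture array a (0.0526). Its other probe sets fell by 3.62 and 5.78 and were set aside. Peg10, a retrotransposon-derived gene, was at 3.65 and 4.31 against 7.27 and 8.09 (-3.70, adjusted p = 0.0262) and Peg12 at 6.96 and 6.88 against 5.53 and 5.17 (1.57, adjusted p = 0.0179), and both lost their calls in all 4 omissions (up to 0.139 and 0.109).

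Hnf4a, a factor of endoderm and liver, was at 4.28 and 4.55 in 2i and at 1.86 and 1.77 with MEFs, just above the floor in 2i (at least 1.34-fold, adjusted p = 0.00175). The light subunit of MHC class I, B2m, was at 9.53 and 8.74 against 7.60 and 7.35 (1.66, SE 0.33, adjusted p = 0.00555), and its other probe set at -0.05. Both stayed called in all 4 omissions. Nefl, a neurofilament chain, was at 7.10 and 8.23 against 10.32 and 10.26 (-2.63, SE 0.48, adjusted p = 0.00411) and also stayed called. The trophoblast list had 0 of 10 genes called by limma, against 36.4% of all genes, and its median lay 0.07 above that of all genes. That count depends on the fit. In a fit of the 4 iPSC arrays alone 4 were called higher and 1 lower, where 4391 genes were called in all. On the deposited values 6 were called higher and 0 lower, where 5253 genes were called.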
